A study of Mus musculus with 16 samples.

Results

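Chromatin accessibility was examined at the promoters of mouse protein-coding genes that start alone, that is, with no other gene starting on the opposite strand within 1 kb. Of 20807 protein-coding gene starts on chromosomes 1 to 19 (GENCODE M21 on mm10), 16852 (81.0%) were single in this sense. A single promoter was called open in a library when a peak of that library lay within 1 kb of its gene start. After peaks of the 16 libraries were merged, 15300 of 291316 regions (5.25%) lay within 1 kb of a single start, and 9143 of these 15300 had a peak in all 16 libraries. The rule used position alone and no measured value of opening or rank.

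The libraries were ATAC-seq of HSPCs (hematopoietic stem and progenitor cells) that were sorted from bone marrow, with 4 libraries for each of 4 genotypes. ATAC-seq uses the Tn5 transposase, which inserts where DNA is not packed by nucleosomes. WT mice were Ep300 fl/fl without Cre, P300KO mice carried Mx1-Cre with Ep300 fl/fl, TET2KO mice were Ep300 fl/fl with Tet2-/-, and P300KO_TET2KO mice carried Mx1-Cre, Ep300 fl/fl and Tet2-/-. All genotypes, the Cre-negative ones included, therefore had floxed Ep300 and received poly(I:C), the double-stranded RNA mimic that switches on the interferon-driven Mx1 promoter of the Cre transgene. The mice were injected as young adults, and the labels say that the pooled mice were matched for age. The methods give a default interval of weeks from injection to experiment, and none was stated for these libraries in particular. Each library came from 50000 viable cells thawed after cryopreservation and from a pool of 2 mice of the same genotype. Mx1-Cre acts in interferon-responsive cells and is not limited to HSPCs, and Tet2 was deleted in the germline. Ep300 encodes the acetyltransferase p300, a coactivator at enhancers and promoters, and Tet2 encodes an enzyme that oxidizes 5-methylcytosine. Neither gene's own promoter was a single promoter, and peak lists cannot check the deletions.

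The lists held 84704 to 134268 peaks on chromosomes 1 to 19. Replicates 1 and 2 of every genotype formed 1 deposit set by their descriptions and replicates 3 and 4 the other. The lists of the first set held 84704 to 108200 peaks and those of the second 127437 to 134268. The methods state a minimum of reads for every library, but the number in each was unknown, so list length stood in for depth and no counting interval could be given.

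A promoter is the stretch around a transcription start where general transcription factors and RNA polymerase II assemble. In mammals many promoters lie in CpG islands, where cytosines are mostly unmethylated and nucleosomes are sparse in nearly every cell type, and genes for basic cell functions usually have such promoters. Promoters poor in CpG belong more often to genes used by 1 tissue and depend on the transcription factors of that tissue. CpG richness was scored here as the observed over expected CpG ratio within 250 bp either side of the gene start. CpG-rich promoters had a ratio of at least 0.6 and at least 55% GC, CpG-poor ones a ratio below 0.4, and the others were intermediate.

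The 150 bases just before the gene start of 6 promoters show the range of sequences that the results below turn on. CpG dinucleotides are in capitals, each sequence reads 5′ to 3′ along the gene's strand, and the coordinates are those of the reference GRCm38.p6, the same assembly as mm10. Napepld, on the minus strand at chr5:21701397-21701546, encodes the phospholipase that makes N-acylethanolamines and had the highest mean rank of all single promoter regions. Ddx4, on the minus strand at chr13:112652476-112652625, encodes a germ cell RNA helicase and was open in no list although its CpG ratio was 0.854, against 0.898 for Napepld. Krt5, on the minus strand at chr15:101712899-101713048, encodes a keratin of basal epithelium and was open in no list.
Napepld: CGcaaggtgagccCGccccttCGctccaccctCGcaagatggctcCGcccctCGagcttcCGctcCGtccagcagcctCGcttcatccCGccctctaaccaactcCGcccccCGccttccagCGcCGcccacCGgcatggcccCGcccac
Ddx4: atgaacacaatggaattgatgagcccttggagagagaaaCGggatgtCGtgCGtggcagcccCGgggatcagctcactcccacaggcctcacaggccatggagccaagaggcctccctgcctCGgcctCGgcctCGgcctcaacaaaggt
Krt5: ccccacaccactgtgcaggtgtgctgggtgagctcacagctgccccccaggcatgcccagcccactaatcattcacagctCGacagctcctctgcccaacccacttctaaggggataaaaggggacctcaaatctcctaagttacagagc

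The printed Napepld stretch held 16 CpG, that of Ddx4 7 and that of Krt5 1. The other 3 are CpG-poor promoters that were open in all 16 lists and whose rank differed with p300 loss. Mx1, on the minus strand at chr16:97462908-97463057, encodes an interferon-induced antiviral GTPase. Itga2b, on the minus strand at chr11:102470123-102470272, encodes the platelet integrin CD41. Gnb3, on the minus strand at chr6:124840276-124840425, encodes a G protein beta subunit. These stretches held 2, 0 and 4 CpG.
Mx1: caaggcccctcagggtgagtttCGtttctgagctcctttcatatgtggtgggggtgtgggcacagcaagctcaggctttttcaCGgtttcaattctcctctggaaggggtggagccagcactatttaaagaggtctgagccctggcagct
Itga2b: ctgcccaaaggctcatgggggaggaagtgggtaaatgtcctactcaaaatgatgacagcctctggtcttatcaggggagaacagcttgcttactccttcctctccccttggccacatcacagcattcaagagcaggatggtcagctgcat
Gnb3: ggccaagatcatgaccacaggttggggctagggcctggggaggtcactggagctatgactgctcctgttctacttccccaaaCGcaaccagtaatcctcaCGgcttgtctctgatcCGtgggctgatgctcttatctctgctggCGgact

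Most single promoters were open in every library or in none. Of the 16852, 8837 (52.4%) were open in all 16 lists, 4766 (28.3%) in none and 3249 (19.3%) in 1 to 15. The promoters in between gathered at both ends of the range, since 702 were open in a single list and 1254 in 12 to 15. Promoters open in all 16 lists also had strong peaks. A peak must pass the calling threshold in every list for this class, so part of the gap given next follows from the definition. Their mean list percentile, the position of the best peak near the start among all peaks of its list by -log10 p, had a median of 92.4, against 28.9 for promoters open in some lists.

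Summits at promoters open in all 16 lists lay close to the gene start. The median offset of the best region's summit was 15.5 bp upstream of the start with quartiles of -69.5 and 84, and 57.9% of these promoters had the summit within 100 bp. Among promoters open in some lists this share was 28.3%. The merged regions had a median width of 1206 bp at the first and 439 bp at the second, and a union of peaks from more lists is wider by construction. Of the 9982 regions that lay over a single start, 81.3% had a peak in all 16 libraries. The share was 16% among the 575 regions in the last 100 bp inside the 1 kb limit and 19.3% among the 574 regions in the first 100 bp outside it.

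**Figure D1:**
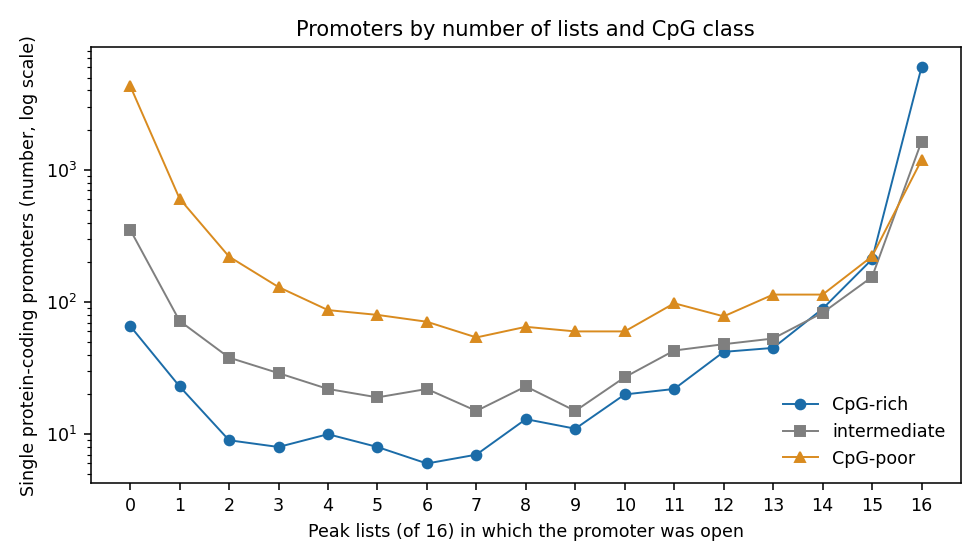
Number of single promoters (y axis, log scale) by the number of the 16 peak lists in which they were open (x axis), for CpG-rich, intermediate and CpG-poor promoters. All 3 classes have few promoters in the middle of the range. CpG-rich promoters peak at 16 lists with 6005 and CpG-poor promoters at 0 lists with 4346.

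Opening followed CpG content closely. Of 6595 CpG-rich single promoters, 6005 (91.1%) were open in all 16 lists and 66 (1.001%) in none. Of 7596 CpG-poor single promoters, 1189 (15.7%) were open in all 16 and 4346 (57.2%) in none. Intermediate promoters lay between, with 61.7% of 2661 open in all 16. In steps of the CpG ratio, the share open in all 16 lists went from 5.13% at ratios up to 0.1 to 94.7% above 0.9. The median ratio was 0.765 for promoters open in all 16 lists, 0.297 for those open in some and 0.152 for those open in none. These are descriptions across promoters, which share libraries and are not replicates.

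**Figure D2:**
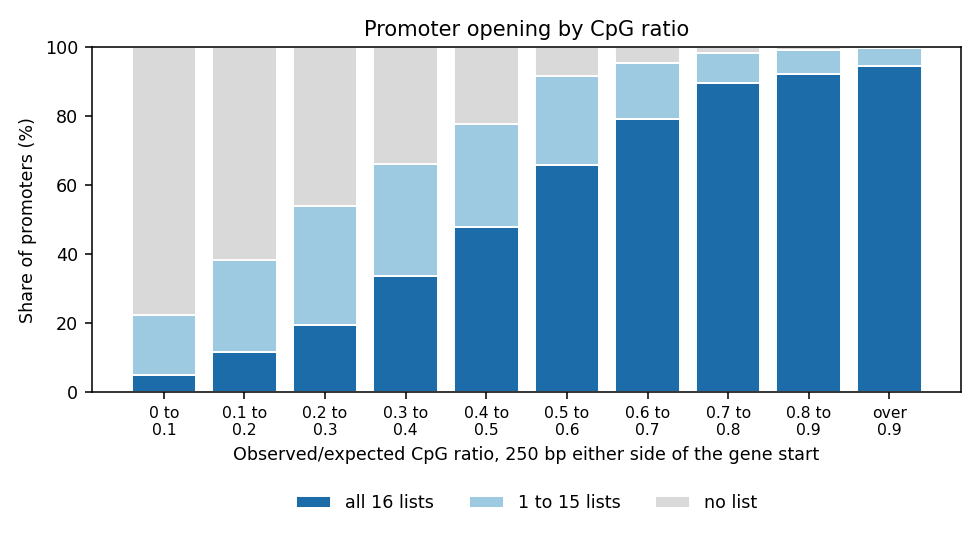
Share of single promoters (y axis, percent) open in all 16 lists, in 1 to 15 lists and in no list, by the observed over expected CpG ratio around the gene start (x axis). The share open in all 16 lists is larger in each successive step and goes from 5.13% to 94.7%.

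Short strings recognized by promoter factors divided along the same line. Strings were searched on both strands from 250 bp before to 50 bp after the start. The GC box GGGCGG, bound by Sp and Klf factors, was in 61.9% of promoters open in all 16 lists, 27.2% of those open in some and 6.001% of those open in none, and in 39.4% of all single promoters. The TATA box TATAAA went the other way, with 7.79%, 14.1% and 26.4%, and 14.3% overall. The median GC content around the start was 62.4%, 53.4% and 44.6% in the same order. The part of base composition in the shares of this string and of the Gata string below was not tested. The Creb string TGACGT was in 10.8% of promoters open in all 16 and 3.36% of those open in none (7.52% overall), and the Nrf1 string GCGCATG in 6.68% and 0.860% (4.17% overall). The GC box, the Creb and Nrf1 strings, and the E-box and YY1 strings given next all hold a CpG, so their frequency is tied to CpG content.

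Within the CpG-poor class these strings also differed between open and closed promoters, although CpG content still varied there. The share open in all 16 lists went from 5.13% at ratios up to 0.1 to 33.8% at 0.3 to 0.4. The GC box was in 20.3% of CpG-poor promoters open in all 16 lists and 4.51% of those open in none, and the TATA box in 13.1% and 27.1%. The E-box CACGTG was in 5.97% and 2.21% (7.36% of all single promoters) and the Nrf1 string in 1.43% and 0.460%. Of the strings of blood cell factors, some differed here and some did so little. The Spi1 string GAGGAAG was in 24.1% of CpG-poor promoters open in all 16 lists and in 12.5% of those open in none, and in 13.6% of all single promoters. Among CpG-rich promoters it ran the other way, with 12.01% of those open in all 16 and 22.7% of the 66 open in none, and over all classes the shares were 13.9% and 12.5%. The E-box and the Nrf1 string also turned in the CpG-rich class, with 11.8% and 28.8% for the first and 8.16% and 10.6% for the second. So did the CCAAT box (37.1% and 21.2%) and the YY1 (7.43% and 7.58%), Myb (8.13% and 4.55%) and AP-1 (3.38% and 0%) strings given below. The closed CpG-rich shares rest on 66 promoters only. Of these, 25 belonged to genes with a Gm number, several in clusters of similar genes, so they are not independent. The Ets string GGAAGT was in 32.5% of open and 21.7% of closed CpG-poor promoters, and in 23.9% of all single promoters. The 2 strings can overlap, since both hold GGAAG when GAGGAAGT occurs. Spi1 encodes PU.1, an Ets factor of myeloid and lymphoid progenitors. The Gata string AGATAA ran the other way in the CpG-poor class, with 13.4% in open and 19.1% in closed promoters (10.9% of all). The Runx string TGTGGT was in 25.4% and 21.7% there (16.4% of all). Over all classes the Runx string turned, with 13.4% of promoters open in all 16 lists and 21.2% of those open in none. The Myb string CAACTG was in 16.3% of open and 16.7% of closed CpG-poor promoters (12.8% of all) and the AP-1 string TGANTCA in 10.01% and 11.6% (7.52% of all). The CCAAT box was in 33.0% and 42.9% (38.3% of all) and the YY1 string ATGGCGG in 1.35% and 0.690% (3.70% of all). A string marks letters in the window and not binding.

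Of the 66 CpG-rich promoters that were open in no list, 25 belonged to predicted genes with a Gm number, 15 of them on chromosome 14 and 8 on chromosome 4. Several of these lie in clusters of similar genes, and how reads that match several copies were treated was not tested. The other genes among the 66 included the following 7 of germ cells or meiosis, picked after the values were seen and with no test of a theme. Sycp1, of the synaptonemal complex, had a CpG ratio of 0.868, Ddx4 0.854, Fkbp6 0.848, Tex12 0.801, Rnf212 0.767, Tdrd1 0.755 and Hormad1 0.740. These 7 had no peak at any annotated transcript start of the gene in any library. Of the 66, 13 had a peak at another annotated start of the same gene, among them Asap2 and Sfi1, likewise picked after the values were seen. The 13 also held germ cell genes, such as Zfp541 (16 lists), Btbd18 (16 lists) and Mov10l1 (1 list), picked in the same way. The 7 therefore do not stand for all germ cell genes among the 66.

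The gene start of the annotation is its outermost start and is not always the one in use. Of the 4766 promoters open in no list, 832 (17.5%) had a peak within 1 kb of another annotated transcript start of the same gene in at least 1 library, and 418 in all 16. Counted over any annotated start, 9851 single-promoter genes were open in all 16 lists and 3934 in none. This count was added once the data had been seen. Examples are Ywhaz, Tet1, Tet3, Dnmt1, Cdkn1a and Brd3, which were open in no list at the gene start and in 16 at another start.

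Gene families split widely. Of 1121 olfactory receptor promoters, which work in nasal sensory neurons, 6 (0.535%) were open in all 16 lists and 1024 (91.3%) in none, and of 323 vomeronasal receptor promoters 0 were open in all 16 and 313 (96.9%) in none. For comparison, 52.4% of all single promoters were open in all 16 and 28.3% in none. Taste receptors had 31 of 37 open in none, defensins 50 of 63, and keratins and keratin-associated proteins 81 of 108. None of the olfactory, vomeronasal, defensin or taste receptor promoters was CpG-rich.

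Families that every cell uses stood at the other end. All 16 lists held 51 of 56 cytosolic ribosomal protein promoters, 39 of 41 mitochondrial ribosomal protein promoters, 22 of 23 complex I subunits, 30 of 35 proteasome subunits, 44 of 49 Rab GTPases, 23 of 26 ubiquitin-conjugating enzymes and 18 of 20 histones. Zfp zinc finger genes had 227 of 303 open in all 16. Solute carriers had 172 of 291, potassium channels 35 of 85 and Cyp enzymes 17 of 91.

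Immune families were mixed, and many of their promoters were open in some lists. Cd antigens had 44 of 84 open in all 16 and 31 in some, although 7.14% were CpG-rich. Interleukins and their receptors had 26 of 68 in all 16 and 22 in some, and chemokines and their receptors 12 of 48 and 25. Of the 33 Hox promoters, 16 were open in all 16 lists with a median list percentile of 64.2, below the 92.4 of all promoters open in all 16.

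The labelled cell type was checked against lists of marker genes. Of 18 single promoters of stem and progenitor transcription factors, 15 were open in all 16 lists, among them Gata2, Meis1, Hlf, Tal1, Lyl1, Erg, Runx1, Spi1 and Gfi1b. The other 3 were Mecom, open in 1 list, Lmo2 and Fli1, both in 12, and each of them was open in 16 lists at another annotated start. Of 12 progenitor surface receptors, 8 were open in all 16, including Kit (the receptor for stem cell factor), Cd34, Procr and Thy1. Ly6a (Sca-1) and Slamf1 (CD150) were open in 15 lists, Il7r in 14 and Tek in 13.

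Markers of later blood cells were open to different degrees. Erythroid markers had 9 of 13 open in all 16, with Klf1 at a mean list percentile of 97.8 and Slc4a1 and Car1 open in none. Megakaryocyte markers had 7 of 12, among them Nfe2, Pf4 and Gp9, with Gp6, Ppbp and Vwf open in none. Neutrophil and monocyte markers had 8 of 17 open in all 16, among them Mpo and Irf8, with Elane open in 2 lists and Ly6g in none. B cell markers had 1 of 11 (Cd79b) and T and NK cell markers 1 of 14 (Bcl11b), with Ms4a1, Dntt and Ncr1 open in none.

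Stroma and endothelium markers had 4 of 11 open in all 16 lists, with Col1a1 at a mean list percentile of 89.9. Markers of other tissues had 3 of 19 open in all 16 and 9 in none, Alb, Ins2, Gcg, Krt5 and Sftpc among the latter. Housekeeping genes had 15 of 16 open in all 16, genes mutated in myelodysplasia and leukemia 11 of 11, replication and cell cycle genes 21 of 22, and acetyltransferases and acetyl-lysine readers 9 of 11. Inflammation and early response genes had 13 of 16, DNA methylation enzymes and partners 4 of 8, and 11 genes that the study named, chosen on these samples, had 3. An open promoter does not show that the gene is transcribed.

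The share of single promoters open in a library ran from 57.6% in WT replicate 1 to 64.6% in TET2KO replicate 3. In WT the 4 libraries had 57.6%, 60.3%, 63.9% and 64.0%, with a mean of 61.5% ± 3.10 (SD, n = 4). In P300KO they had 60.4%, 58.2%, 64.2% and 63.7% (61.6% ± 2.84), in TET2KO 60.8%, 60.8%, 64.6% and 64.0% (62.5% ± 2.03), and in P300KO_TET2KO 61.6%, 61.5%, 63.7% and 63.7% (62.6% ± 1.25). The genotypes overlapped throughout, and within each genotype both libraries of the second deposit set lay above both of the first.

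No genotype contrast of this share passed the test. The differences were 0.0905 percentage points for P300KO_TET2KO against TET2KO, 0.145 for P300KO against WT, 1.05 for TET2KO against WT and 0.994 for P300KO_TET2KO against P300KO, with two-sided exact permutation p values of 0.971, 0.857, 0.514 and 0.514 and adjusted p of 0.971 for each. The smallest p that 4 against 4 libraries can give is 0.0286. Within the first deposit set the 4 differences were 0.754, 0.317, 1.81 and 2.25 points, and within the second they were -0.573, -0.0267, 0.285 and -0.261. The deposit sets themselves differed by 3.83 points, with p = 0.00154 when the set labels were permuted within each genotype (exact test), the smallest p it can give.

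**Figure D3:**
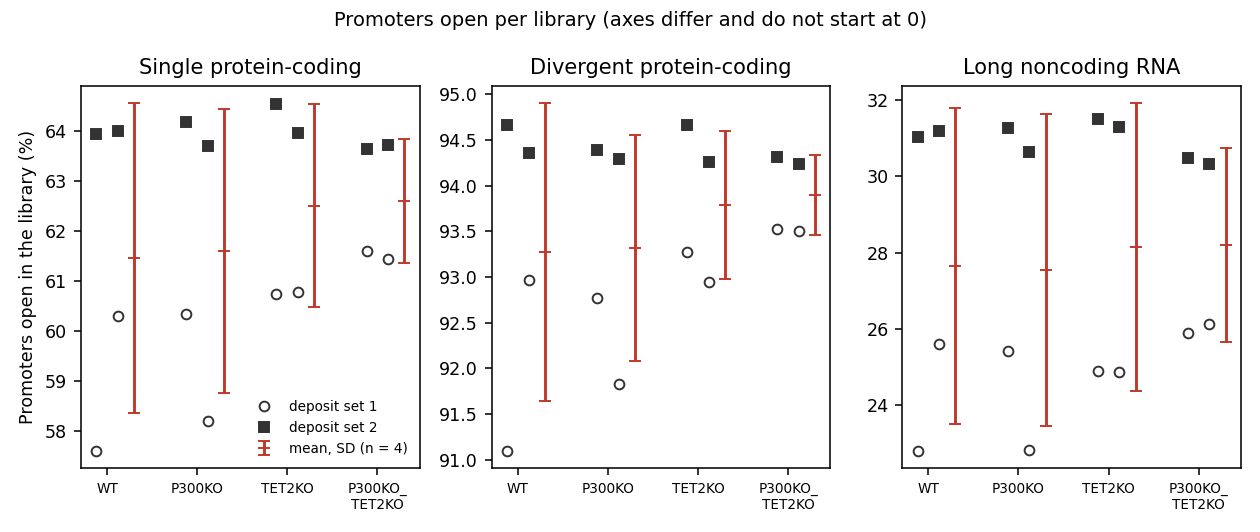
Percent of promoters open in each library (y axis) for single protein-coding, divergent protein-coding and long noncoding RNA promoters, by genotype (x axis). Open circles are libraries of deposit set 1, filled squares those of set 2, and bars show the mean and SD of 4 libraries. The sets separate in every panel and the genotypes overlap.

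Rank within a list compares promoters without comparing signal between libraries. Among the 38694 regions with a peak in all 16 libraries, each region was given a percentile in each library by its -log10 p, so that 100 is the strongest. The rank percentile is relative: it cannot show a change shared by all regions, and in these bulk samples fewer open cells of a type and less opening per cell cannot be told apart. The 9143 single promoter regions had a median mean percentile of 76.7, with quartiles of 50.6 and 89.7, against 38.6 for the 25915 regions near no single, divergent or long noncoding RNA start. CpG-rich single promoter regions had a median of 81.9, intermediate ones 69.5 and CpG-poor ones 54.0. Of single promoter regions, 24.2% had a mean percentile of at least 90, against 9.64% of all tested regions. Divergent promoter regions lay higher, with a median of 86.5 and 39.8% at 90 or above.

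The single promoter regions with the highest mean rank lay at the ceiling of the scale, where the range over libraries is narrow by construction. Napepld had a mean percentile of 99.9 with a range of 99.7 to 100.0 over the 16 libraries. Next came Mrpl17 (a mitochondrial ribosomal protein), Bcl10 (a signalling adaptor of lymphocyte receptors), Pdia4 (a protein disulfide isomerase of the endoplasmic reticulum), Kansl2, Cpeb4, 1810022K09Rik, Larp4b, Papss1 and Rcl1, whose means were 99.7 to 99.8. Bcl10 and Cpeb4 were CpG-poor around the annotated gene start and the other 8 of these 10 CpG-rich.

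The median rank percentile of single promoters did not separate the genotypes. WT had 77.0 ± 1.08, P300KO 77.1 ± 0.772, TET2KO 77.0 ± 1.22 and P300KO_TET2KO 77.4 ± 1.20 (SD, n = 4). The contrasts gave differences of 0.370 percentile points for P300KO_TET2KO against TET2KO, 0.164 for P300KO against WT, 0.0617 for TET2KO against WT and 0.267 for P300KO_TET2KO against P300KO. The exact permutation p values were 0.571, 0.8286, 0.943 and 0.743, with an adjusted p of 0.943 for each. Here too the deposit sets differed, by -1.73 percentile points for the second against the first (exact permutation p = 0.00154).

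Some single promoters passed the test for a rank change with p300 loss. Every library with p300 loss carried Mx1-Cre and no other library did. The effects of p300 loss and of the transgene therefore cannot be told apart in any p300 contrast given here. Over both Tet2 backgrounds, 124 of 9143 single promoter regions (1.36%) passed limma at an adjusted p of 0.05 over all regions, 59 with a higher and 65 with a lower rank in the libraries with p300 loss. Among all 38694 regions 3.29% were called, 1.24% higher and 2.05% lower. The difference between these shares was not tested, and single promoters lie higher in the ranking (median 76.7 against 48.1), where the percentile has less room to move. The median difference was 0.0804 percentile points over the single promoter regions and 0.123 over all regions. With the first deposit set alone (8 libraries) 0 of the 124 passed, against 76 with the second alone, and without a term for the deposit set 17 passed. All 124 kept their sign within each set, with a median absolute difference of 9.32 points in the first and 10.9 in the second. The regions were called on both sets together, so this is no independent support. The split was 25 higher and 62 lower with ranks by fold enrichment and 7 higher and 18 lower with full-list percentiles. Leaving out 1 library moved the count between 55 (without P300KO_TET2KO replicate 4) and 222 (without WT replicate 1).

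**Figure D4:**
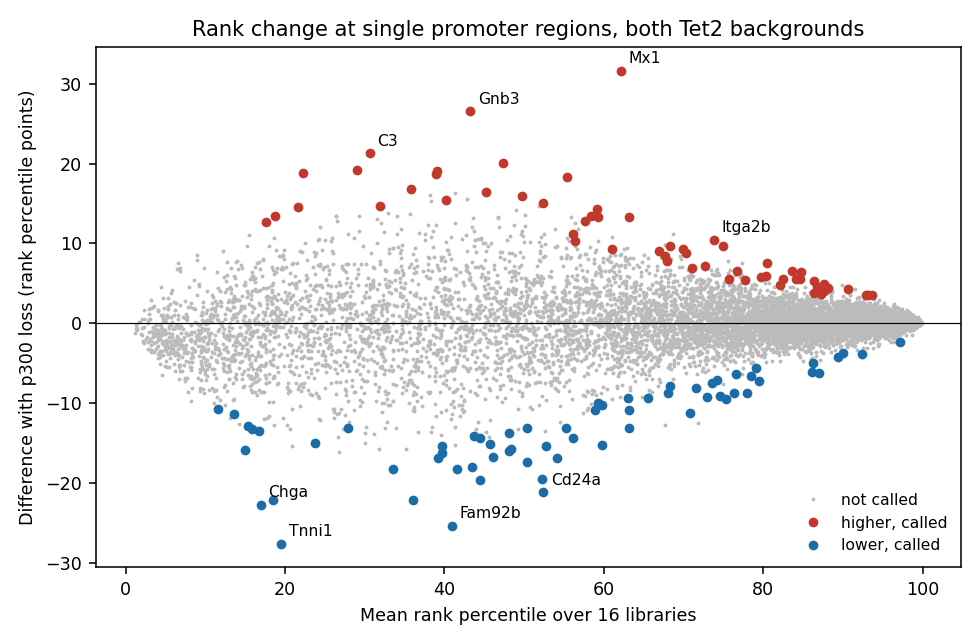
Difference in rank percentile with p300 loss over both Tet2 backgrounds (y axis, percentile points) against the mean percentile over 16 libraries (x axis) for 9143 single promoter regions. Red points are the 59 called higher, blue points the 65 called lower and grey points those that did not pass. Mx1 and Tnni1 have the differences farthest from 0, 31.6 and -27.6.

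The promoter of Mx1 had the largest increase, and it is also the promoter that drives Cre in these mice. Its region (chr16:97462592-97464459) stood at percentiles of 63.1, 48.0, 38.1 and 41.4 in WT and 48.1, 38.7, 48.1 and 44.9 in TET2KO. In P300KO it stood at 78.4, 69.0, 78.9 and 81.2, and in P300KO_TET2KO at 73.7, 74.7, 85.1 and 82.1. All 8 libraries with Mx1-Cre lay above all 8 without it, and the call over both backgrounds held under 23 of 24 alternatives. The difference was 31.6 percentile points (SE 3.26, limma adjusted p = 1.58e-05), and it was called against both TET2KO (33.9, SE 4.61, adjusted p = 0.000554) and WT (29.2, SE 4.61, adjusted p = 0.0030). The Mx1-Cre transgene carries a copy of the Mx1 promoter, so reads of the transgene and of the endogenous promoter cannot be told apart, nor can p300 loss and the presence of the transgene.

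Other interferon response promoters gave smaller values. Of the 15 regions tested for 14 single promoters of the interferon list, Mx1 was the only one called with p300 loss, and the median difference of the list was 1.45 points. Oas1a had a difference of 13.2 (SE 4.39, adjusted p = 0.10) and Rsad2 -8.86 (SE 3.75, adjusted p = 0.21). Outside the list, Ifi27l2a, an interferon-induced gene, was called with a difference of 19.3 (SE 5.06, adjusted p = 0.0337). Its percentiles were 14.4, 15.04, 9.47 and 32.2 in WT and 6.53, 31.3, 24.5 and 21.2 in TET2KO, against 47.6, 52.7, 19.2 and 30.2 in P300KO and 28.8, 42.8, 42.0 and 45.4 in P300KO_TET2KO. The groups overlapped, and the call held under 10 of 24 alternatives.

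Gnb3 had the second largest increase. Its region stood at 13.6 to 38.9 in WT and 23.3 to 48.2 in TET2KO, and at 48.5 to 54.0 in P300KO and 57.4 to 64.5 in P300KO_TET2KO. The 8 libraries with p300 loss lay above the 8 without it (difference 26.5, SE 4.24, limma adjusted p = 0.000951). C3, which encodes the central complement component, stood at 12.9, 9.01, 3.35 and 20.6 in WT against 28.1, 45.6, 45.2 and 38.7 in P300KO, and at 22.9, 34.3, 43.0 and 13.9 in TET2KO against 41.7, 54.0, 41.8 and 34.9 in P300KO_TET2KO. WT and P300KO did not overlap, while TET2KO reached into the range of P300KO_TET2KO. The difference was 21.3 (SE 4.59, adjusted p = 0.0102). Ugt1a6a, a glucuronosyltransferase, rose by 20.01 (SE 3.85, adjusted p = 0.00476), from 29.6 to 51.9 in the 8 libraries without p300 loss to 46.1 to 64.5 in the others.

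Itga2b was the only megakaryocyte marker called of 7 tested. It stood at 48.5, 66.8, 75.3 and 69.5 in WT against 72.9, 86.8, 76.5 and 74.3 in P300KO, and at 73.4, 69.7, 69.1 and 76.1 in TET2KO against 78.2, 76.4, 83.7 and 83.2 in P300KO_TET2KO. WT replicate 1 was the lowest library and the genotypes overlapped in part (difference 10.4, SE 2.70, limma adjusted p = 0.0309). Pf4 had a difference of 7.69 (SE 2.39, adjusted p = 0.07) and Gp1ba 4.53 (SE 2.22, adjusted p = 0.29). Treml1 had 4.07 (SE 3.42), Gp9 1.04 (SE 2.78), Nfe2 -0.121 (SE 0.718) and Gp5 -2.86 (SE 4.03). The median over the 7 megakaryocyte regions was 4.07, against 0.0804 over all single promoter regions.

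The largest decrease was at Tnni1, which encodes the troponin I of slow skeletal muscle. Its percentiles were 60.7, 17.2, 45.9 and 35.0 in WT and 22.6, 14.7, 32.5 and 37.6 in TET2KO. They were 3.29, 9.11, 7.32 and 12.4 in P300KO and 1.93, 5.86, 1.81 and 4.17 in P300KO_TET2KO, all below every library without p300 loss. The difference was -27.6 (SE 4.58, limma adjusted p = 0.00146). Fam92b fell from 43.4 to 62.1 over the libraries of WT and TET2KO to 16.99 to 38.0 over those of P300KO and P300KO_TET2KO, again with no overlap (difference -25.3, SE 3.72, adjusted p = 0.000407).

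Chga, which encodes chromogranin A of neuroendocrine granules, was low in all 3 mutant genotypes. The region lay 505 bp upstream of the gene start. It stood at 45.1, 29.0, 61.0 and 48.1 in WT against 8.47, 11.7, 4.18 and 15.3 in P300KO, and at 3.91, 7.36, 13.2 and 18.4 in TET2KO against 0.579, 0.894, 2.85 and 0.749 in P300KO_TET2KO. All 4 WT libraries lay above the 12 others. The difference was -22.7 with p300 loss over both backgrounds (SE 3.50, limma adjusted p = 0.000647), -35.9 for P300KO against WT (SE 4.95, adjusted p = 0.00142) and -35.1 for TET2KO against WT (SE 4.95, adjusted p = 0.00836). The interaction of p300 and Tet2 loss, which asks whether the effects add up, was 26.4 (SE 7.002, adjusted p = 0.924) and did not pass. With P300KO and TET2KO both near the bottom of the scale, effects that add up would need a percentile below 0, so a positive sign was fixed by the floor.

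Gm45021 fell by 22.1 percentile points (SE 3.79, limma adjusted p = 0.00184), from 11.7 to 51.3 in the 8 libraries without p300 loss to 0.607 to 21.4 in the others. Slc14a1, the urea transporter of red cells and kidney, fell by 22.0 (SE 4.85, adjusted p = 0.0118), from 30.9 to 60.0 to 13.6 to 41.3. Both groups of libraries overlapped at these 2 promoters.

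Cd24a, which encodes a surface glycoprotein of developing B cells and other immature blood cells, fell with p300 loss over both Tet2 backgrounds and in the Tet2-deficient one. The region began 34 bp after the gene start. Its percentiles were 79.9, 69.97, 54.2 and 60.9 in WT against 59.6, 63.1, 38.0 and 33.0 in P300KO, and 60.9, 71.6, 54.7 and 51.3 in TET2KO against 57.9, 47.8, 18.4 and 16.7 in P300KO_TET2KO. The second deposit set was lower than the first in every genotype, and within each set the libraries with p300 loss stood lower by mean. The difference over both backgrounds was -21.1 (SE 3.50, limma adjusted p = 0.00143) and that of P300KO_TET2KO against TET2KO was -24.4 (SE 4.95, adjusted p = 0.0395). P300KO against WT gave -17.8 (SE 4.95, adjusted p = 0.07) and did not pass. The call against TET2KO held under 10 of 24 alternatives.

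A few further promoters called with p300 loss are given as examples. They were chosen after the values were seen, and no theme was tested. On the fixed lists 0 of 2 B cell and 0 of 2 T and NK cell regions were called, with medians of -0.988 and 2.35. Among those called lower, Tox (-15.9) and Tox2 (-13.7) encode DNA-binding proteins of lymphocyte development, Ltb (-13.5) encodes lymphotoxin beta, Nkg7 (-10.7) a protein of cytotoxic granules, and Ctsw (-15.3) a protease of cytotoxic lymphocytes. Smad3 (-19.4) transmits TGF-beta signals, Hes1 (-15.3) is a target and Mfng (-6.53) a modifier of Notch, and Itga4 (-7.85) is an adhesion receptor of progenitors. Among those called higher were Naip2 (19.1), an inflammasome receptor, Cd7 (18.9), an antigen of T and NK cells, Pi16 (18.7), a peptidase inhibitor, and Plscr1 (11.2), an interferon-induced scramblase. Each value is the limma difference in percentile points over both backgrounds.

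**Figure D5:**
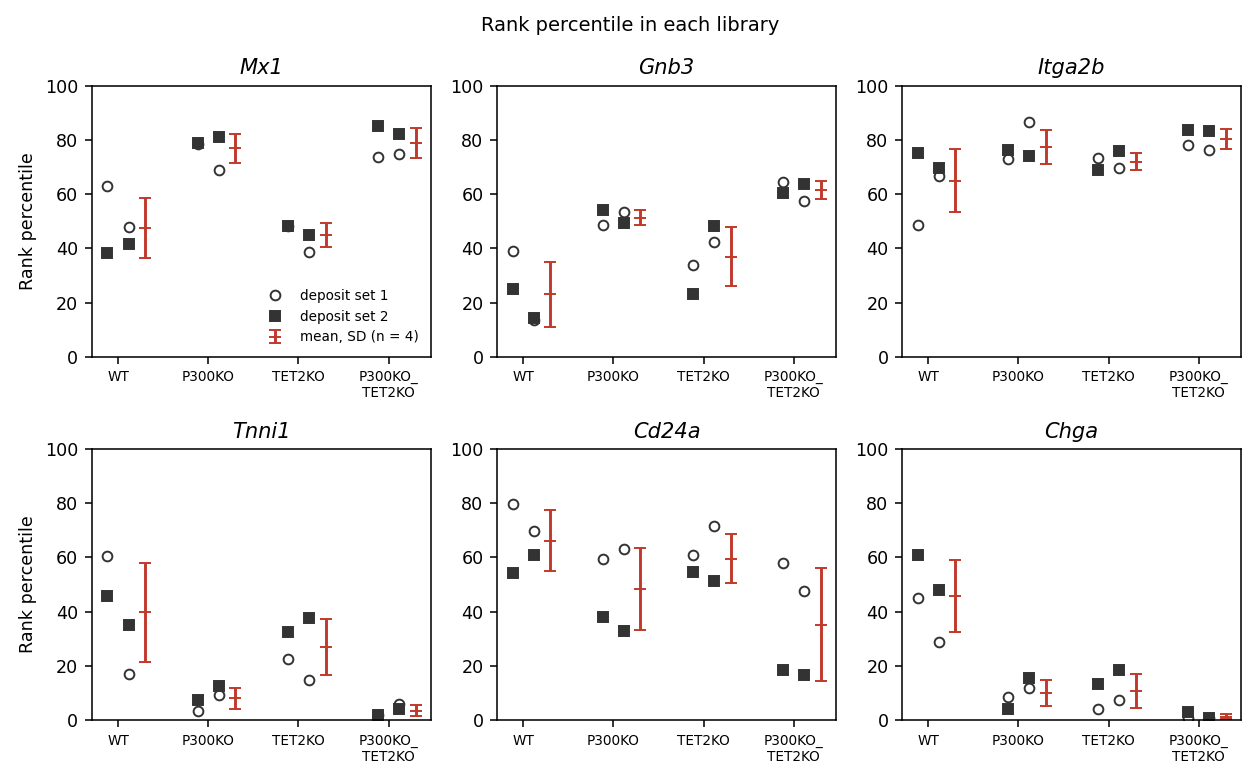
Rank percentile (y axis, 0 to 100) of 6 single promoter regions in each library, by genotype (x axis). Open circles are deposit set 1, filled squares set 2, and bars show the mean and SD of 4 libraries. Mx1 and Gnb3 are higher in all 8 libraries with p300 loss, Tnni1 is lower in all 8, and Chga is lower in the 12 mutant libraries than in WT.

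CpG-poor promoters were called at a higher share than CpG-rich ones. With p300 loss, 46 of 1294 CpG-poor regions (3.55%), 26 of 1686 intermediate regions (1.54%) and 52 of 6163 CpG-rich regions (0.844%) were called, beside 3.29% of all regions. CpG-rich regions sit near the top of the ranking, where the percentile has less room to move, and the part of this in the difference was not tested. No stem and progenitor transcription factor (16 regions tested), progenitor surface receptor (8) or acetyltransferase or acetyl-lysine reader (12) was called in any contrast. Kit, for example, had a difference of -1.34 (SE 1.27, adjusted p = 0.64), Gata2 -5.53 (SE 3.52, adjusted p = 0.44) and Gfi1b 5.09 (SE 1.73, adjusted p = 0.10). Myb, a gene that the study named, had a difference of 2.77 (SE 3.63, adjusted p = 0.75) and Hoxb4 1.06 (SE 1.71, adjusted p = 0.81).

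The single contrasts share libraries with each other and with the pooled one. P300KO against WT called 48 single promoter regions (0.525%), 17 higher and 31 lower, beside 1.17% of all regions, 0.372% higher and 0.793% lower. The count was 2 without a term for the deposit set, 2 with full-list percentiles and 1 with ranks by fold enrichment. It was 31 with the replicate number as a block, 79 without WT replicate 2 and 9 without P300KO replicate 4. Besides Mx1, Gnb3, C3, Chga, Tnni1 and Fam92b, the largest differences were 20.7 at Acaa1b, a peroxisomal thiolase (SE 5.23, limma adjusted p = 0.0485), 17.2 at Msantd1 (SE 3.67, adjusted p = 0.0249), -28.0 at Mpp4 (SE 5.20, adjusted p = 0.00986) and -27.3 at Zfp683, which encodes Hobit of tissue-resident lymphocytes (SE 5.52, adjusted p = 0.0187). The call of Acaa1b held under 1 of 24 alternatives and the others named for this contrast under 14 to 21.

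P300KO_TET2KO against TET2KO called 2 single promoter regions (0.0219%), Mx1 (higher) and Cd24a (lower), beside 0.16% of all regions, 0.0258% higher and 0.134% lower. The count was 1, Mx1, with the replicate number as a block, and 18 without WT replicate 1, a library outside this contrast. Ranked by fold enrichment, 6 were higher and 60 lower, and 0 of the 2 reported calls were among them. TET2KO against WT called 2, Chga (lower) and Fzd8 (higher), beside 0.0465% of all regions, 0.00517% higher and 0.0414% lower. Fzd8, a Wnt receptor, stood at 54.9, 61.1, 33.9 and 32.4 in WT and 76.9, 75.4, 68.4 and 60.1 in TET2KO (difference 24.6, SE 4.31, limma adjusted p = 0.0285), and 1 WT library lay within the TET2KO range. Without TET2KO replicate 1 neither passed, and without TET2KO replicate 4 the count was 8.

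P300KO_TET2KO against P300KO called 21 single promoter regions (0.230%), 14 higher and 7 lower, beside 0.357% of all regions, 0.0956% higher and 0.261% lower. The count was 1 without P300KO_TET2KO replicate 3 and 53 without WT replicate 1. Ranked by fold enrichment, the split turned to 3 higher and 14 lower. The 5 largest increases were at genes for a transcriptional coactivator of the Hippo pathway (Wwtr1, 35.5, SE 6.86, limma adjusted p = 0.0166), an ethanolamine kinase (Etnk2, 33.4, SE 7.49, adjusted p = 0.0466), interleukin 4 (Il4, 32.8, SE 6.47, adjusted p = 0.0188), a carboxypeptidase (Agbl4, 29.8, SE 5.93, adjusted p = 0.0209) and a forkhead factor of endoderm (Foxa2, 27.4, SE 6.01, adjusted p = 0.0401). Il4 stood at 26.8, 31.8, 20.4 and 13.5 in P300KO and 59.3, 56.9, 54.8 and 52.8 in P300KO_TET2KO, with no overlap, and its region lay 934 bp after the gene start. The 5 largest decreases were at 4931408C20Rik (-37.6, SE 8.40, adjusted p = 0.0463), Cd244a (-26.9, SE 5.54, adjusted p = 0.0278), Mcub (-22.8, SE 4.87, adjusted p = 0.0344), Stpg2 (-16.1, SE 3.07, adjusted p = 0.0146) and Srsf10 (-10.4, SE 2.17, adjusted p = 0.0296). The calls held under 5 (4931408C20Rik) to 17 (Stpg2) of 24 alternatives. Cd244a encodes a receptor of NK cells and of some progenitors, and Mcub a subunit of the mitochondrial calcium channel.

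Some of these promoters lie near the Tet2 locus. Within 20 Mb of Tet2 on chromosome 3 lay 98 of the 9143 tested regions (1.07%) and 3 of the 21 called between P300KO_TET2KO and P300KO (14.3%), namely Mcub, Stpg2 and Eif4e, the last named only for its position after the values were seen. All 3 stood lower in P300KO_TET2KO. Between TET2KO and WT, 0 of the 2 called regions lay within 20 Mb of Tet2. The mean percentile of Stpg2 was 82.2 (WT), 77.7 (P300KO), 68.2 (TET2KO) and 61.6 (P300KO_TET2KO), and that of Mcub 49.5, 50.7, 38.3 and 27.9 in the same order. The Tet2-deficient genotypes share whatever sequence flanks the targeted allele, which cannot be told apart from Tet2 loss at these promoters. With p300 loss, 3 of the 124 called regions (2.42%) lay within 20 Mb of Ep300, where 2.75% of tested regions lie.

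No single promoter region was called for the interaction of p300 and Tet2 loss by limma, and 0 of all 38694 regions were. At an unadjusted p below 0.05 there were 471 single promoter regions (5.15%) and 5.22% of all regions. The lowest p values belonged to Paqr7 (-15.4, SE 3.67), Tmem95 (-12.5, SE 3.16) and Gm21969 (-27.9, SE 7.57) among negative interactions and Chga, Trim39 (13.2, SE 3.50) and Arhgap29 (12.8, SE 3.43) among positive ones, with limma adjusted p of 0.918 to 0.924.

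Promoter regions that appeared or disappeared with genotype were few. A gained region had a peak in 4 of 4 libraries of the genotype named first and in 0 of 4 of the other, and a lost region the opposite. The comparison of P300KO_TET2KO with TET2KO gave 8 gained and 0 lost single promoter regions, 0.0728% of the 10992 that were in 4 of 4 libraries of either genotype. Among all regions 0.274% were gained or lost, 0.224% gained and 0.0498% lost. With the strongest 50000 peaks of each list the direction turned, with 3 gained and 6 lost. For P300KO against WT there were 2 gained and 1 lost (0.0291%), beside 0.117% of all regions, 0.0649% gained and 0.0516% lost, and the strongest 50000 peaks gave 2 gained and 4 lost. Without WT replicate 1 this contrast gave 2 gained and 10 lost, without WT replicate 2 it gave 2 and 6, and without P300KO replicate 3 it gave 6 and 7. For TET2KO against WT there were 4 gained and 1 lost (0.0473%), beside 0.0952% of all regions, 0.0624% gained and 0.0328% lost, and without WT replicate 1 there were 6 gained and 7 lost. For P300KO_TET2KO against P300KO there were 12 gained and 0 lost (0.110%), beside 0.372% of all regions, 0.252% gained and 0.12% lost.

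The gained regions were mostly weak. Between P300KO_TET2KO and TET2KO the strongest were Gm21863 at a mean list percentile of 57.7, Rpl37 (a ribosomal protein) at 45.5, Rab3ip at 43.5, 1700012B09Rik at 25.8 and Il1rl1 (the interleukin 33 receptor) at 19.4. Coprs (47.1) and Pbx2 (22.5) were gained and Slc26a8 (38.3) was lost between P300KO and WT. Slc26a8 was absent from the 4 P300KO libraries and present in all 12 others, so it also counted as gained between P300KO_TET2KO and P300KO. Efemp1 (36.9), Bahcc1 (35.6), D930020B18Rik (16.998) and Csdc2 (15.6) were gained and Tspan1 (35.1) was lost between TET2KO and WT. AK157302 (42.5), Srebf2 (36.1), Ccdc24 (33.9) and Ebf4 (31.2) led the other gains between P300KO_TET2KO and P300KO. All these values are mean list percentiles over the 4 libraries with the peak.

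Compared with divergent promoters, where another gene starts on the opposite strand within 1 kb, single promoters were less often open. A divergent start has by definition a second gene start in its 1 kb window, and a peak at that start also counts. The part of this in the difference was not tested. Of 3955 divergent protein-coding promoters, 3549 (89.7%) were open in all 16 lists and 149 (3.77%) in none. Per library the share was 91.1% to 94.7%, and it exceeded that of single promoters by 31.5 percentage points on average (SD 1.22, 16 of 16 libraries, range 30.1 to 33.6), with p = 3.05e-05 in an exact sign-flip permutation test over libraries, the smallest p it can give. Divergent promoters were CpG-rich in 73.0% of cases against 39.1% of single promoters. Among CpG-rich promoters alone the shares were 97.1% ± 1.39 for single and 98.9% ± 0.529 for divergent promoters (SD over 16 libraries), a difference of 1.77 points (range 1.01 to 4.04, exact sign-flip p = 3.05e-05). This class is near the ceiling. The sign-flip tests here and for long noncoding RNA starts below compare libraries scored on the same promoters. Their p therefore does not describe the spread among promoters. In the intermediate class 61.7% of single and 87.6% of divergent promoters were open in all 16 lists, and in the CpG-poor class 15.7% and 39.9%.

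Long noncoding RNA starts without an opposite start lay on the other side. Of 7713, 1204 (15.6%) were open in all 16 lists and 4120 (53.4%) in none. Single protein-coding promoters exceeded them by 34.2 points per library (SD 1.25, 16 of 16 libraries, exact sign-flip p = 3.05e-05). Of these long noncoding RNA starts 80.2% were CpG-poor, and within the CpG-poor class 9.74% were open in all 16 lists, against 15.7% of single promoters.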

How the data were processed

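HSPC ATAC-seq peak lists of 16 libraries were used. Per the submitters' processing notes and methods, the authors trimmed paired reads with cutadapt 1.9.1, aligned them to mm10 with Bowtie2 2.2.6, removed duplicates, shifted reads for Tn5 and called peaks per library with MACS2 2.1.0. The deposited lists give fold enrichment as a ratio to local background, and −log10 p and −log10 q values, all within 1 library. They hold no read counts, so depth was unknown.

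Summits of the same interval were joined, and peaks of chromosomes 1 to 19 were merged at 1 bp overlap. On all 19 chromosomes the peaks ended within GRCm38.p6 lengths. Values per library were compared by two-sided exact permutation over 70 regroupings of 4 against 4, with Benjamini-Hochberg adjustment over 4 contrasts. Rank percentiles of the 38694 regions with a peak in all 16 libraries were fitted with limma 3.58.1 (trend, robust) in R 4.3.3 over all 16 libraries with the deposit set as a covariate, and p-values were adjusted over all these regions at 0.05. In simulated data for P300KO_TET2KO against TET2KO on the 38694 regions, 0%, 43% and 84% of 200 planted shifts of 0.25, 0.5 and 1 SD of the normal scores were recovered. Other steps used Python 3.11.15 with pandas 2.3.3.

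Each region was named by its nearest single protein-coding start. Named genes were the fixed lists, families by counts, the 10 highest ranks, up to 5 called regions per direction and contrast (the 3 lowest p per direction where none was called), and up to 5 gained and 5 lost regions. Genes named outside this rule are marked as chosen after their values were seen. The promoters, lists and rules were chosen with earlier results of these data known. Of 19 gene symbols more than 1 single promoter gene bore the name, and 16 regions also lay near a divergent start. Same-numbered libraries of different genotypes correlated in their deviations (r 0.187 to 0.523), as did other libraries of the same set (0.214 to 0.497). Once set means were removed, same-numbered libraries had r of −0.124 to 0.0676, so the numbers were taken to pair libraries through the deposit set. The labels call each library an independent pool of mice.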

Additional observations from a re-analysis of the deposited data

Results flagged for a closer look

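Of 116 groups of 4 libraries examined (3 measures per library and the named rank changes), 3 held a library far from the other 3 by Dixon's ratio, where chance gives about 1 in 20. P300KO_TET2KO replicate 3 had a percentile of 2.85 at Chga, above the other 3 libraries of its genotype and still below every library of WT. P300KO_TET2KO replicate 1 had 29.5 at Cd244a, below the other 3. TET2KO replicate 2 had 43.9 at Mcub, above the other 3.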

How the results depend on the processing

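The numbers of single promoters open in all 16 lists (7843 to 10165) and in none (3934 to 6833) and the difference from divergent promoters (31.5 to 36.4 points) kept within 1.5 times of the reported values or on their side of the threshold under each alternative run for them. No percent open or median rank contrast passed under any alternative, the replicate block included (0.0905, 0.145, 1.05 and 0.994 points, and 0.370, 0.164, 0.0617 and 0.267). The sign-flip test over 4 numbered pairs cannot go below 0.125, the p it gave for the median rank of P300KO_TET2KO against TET2KO, and permutation within deposit set cannot reach 0.05 either, so not passing these tests says nothing about stability. The sign turned in percent open for P300KO against WT with the strongest 50000 peaks (-0.0386) and any transcript start (-0.0668), and in median rank with ranks by fold enrichment for P300KO_TET2KO against TET2KO (-5.57), P300KO against WT (-1.09) and P300KO_TET2KO against P300KO (-4.47) and with full-list percentiles for P300KO against WT (-0.411) and TET2KO against WT (-0.405). Leaving out 1 library gave -0.497 to 0.770, -1.14 to 1.28, -0.236 to 1.896 and -0.143 to 1.85 points for percent open and -0.0475 to 0.786, -0.309 to 0.507, -0.412 to 0.454 and -0.150 to 0.683 for median rank, where the contrasts are given with P300KO_TET2KO against TET2KO first, followed by P300KO against WT, then TET2KO against WT, and P300KO_TET2KO against P300KO last.

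Counts of regions with a changed rank depended on the processing. In that order, and then for p300 loss over both backgrounds, without the deposit set they were 1, 2, 0, 2 and 17. With full-list percentiles they were 1, 2, 0, 3 and 25, the last with 7 higher and 18 lower. Ranks by fold enrichment gave 66, 1, 0, 17 and 87, with 25 higher and 62 lower for p300 loss against 59 and 65 as reported, 6 and 60 for P300KO_TET2KO against TET2KO and 3 and 14 for P300KO_TET2KO against P300KO. The replicate block gave 1, 31, 2, 15 and 99, normal scores 4, 28, 1, 17 and 113, and regions in at least 8 libraries 3, 15, 1, 14 and 102. Deposit set 1 alone gave 0, 0, 1, 1 and 0 and set 2 alone 39, 83, 2, 22 and 273, both chosen after the data were seen, and set 2 alone gave 2 for the interaction against 0 otherwise. Leaving out 1 library gave 1 to 18, 9 to 79, 0 to 8, 1 to 53 and 55 to 222, and 0 for the interaction. The p300 count was 222 without WT replicate 1, 204 without WT replicate 2, 82 without WT replicate 3, 80 without P300KO replicate 4, 81, 81 and 56 without TET2KO replicates 2, 3 and 4, and 71, 61 and 55 without P300KO_TET2KO replicates 2, 3 and 4. For P300KO_TET2KO against TET2KO it was 18 without WT replicate 1 and 1 without WT replicate 3, P300KO replicates 1 or 3, TET2KO replicates 2, 3 or 4 or P300KO_TET2KO replicates 2, 3 or 4. For P300KO against WT it was 79 without WT replicate 2, 21 without WT replicate 3, 17, 11 and 9 without P300KO replicates 1, 3 and 4, 29 without TET2KO replicate 3 and 27 to 30 without any 1 P300KO_TET2KO library. For TET2KO against WT it was 4 without WT replicate 4, 0, 1, 1 and 8 without TET2KO replicates 1 to 4. For P300KO_TET2KO against P300KO it was 53 without WT replicate 1, 4, 11, 6 and 7 without P300KO replicates 1 to 4 and 5, 8, 1 and 11 without P300KO_TET2KO replicates 1 to 4. Between 53 and 116 of the 124 regions were still called without 1 library, and all 124 kept their direction there. With ranks by fold enrichment 28 of the 124 were still called and 120 kept their direction. The settings that used fewer libraries had fewer samples by construction. Sets 1 and 2 alone held 8 libraries each and gave 0 and 273 for p300 loss. The cause of this and of the other differences between settings was not tested. The increase of Mx1 over both backgrounds was 11.2 to 38.7 percentile points over the settings on the percentile scale and missed the threshold with set 1 alone.

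Gained and lost regions numbered 8, 3, 5 and 12. A −log10 q of at least 2 gave 5 for P300KO_TET2KO against TET2KO and 1 each for P300KO against WT and TET2KO against WT, the strongest 50000 peaks gave 6 for P300KO against WT (2 gained, 4 lost) and 9 for P300KO_TET2KO against TET2KO (3 gained, 6 lost), a 500 bp window 4 for P300KO_TET2KO against TET2KO, and 3 of 4 against 1 of 4 gave 185, 152, 140 and 190. Leaving out 1 library gave 12 to 23, 6 to 22, 9 to 14 and 16 to 29, and losses then outnumbered gains for P300KO against WT without WT replicate 1 (2 gained, 10 lost), WT replicate 2 (2 and 6) or P300KO replicate 3 (6 and 7) and for TET2KO against WT without WT replicate 1 (6 and 7). Without read counts, a promoter without a peak cannot be told from one below the calling threshold of a shorter list.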
